A study of Homo sapiens with 18 samples.

Results

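MECOM and PRDM16 are paralogous zinc finger genes of the PRDM family, both rearranged or overexpressed in leukaemia. They were examined in U937 cells, an established human line that derives from a histiocytic lymphoma, serves as a myeloid model and is labelled AML (acute myeloid leukaemia) here, as 2 genes of 19974 protein-coding genes on chromosomes 1 to 22 and X. The pair was chosen by its leukaemia association together with measured values of these libraries: the percentage of each gene body inside H3K9me3 and H3K27me3 domains, the position of those domains and nearby SETDB1 peaks. All values of the 2 genes below are therefore descriptions without a test.

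The cells were of 3 genotypes, all on the U937 background. The first, named sgControl, carried a control guide RNA by its name. SUV39H1 SKO cells were knocked out for SUV39H1, and SUV39H1/2 DKO cells for SUV39H1 and SUV39H2 together. H3K9me3 and H3K27me3 were each mapped by chromatin immunoprecipitation and sequencing (ChIP-seq) in 2 libraries per genotype, and SETDB1 in 2 libraries of WT cells, which are wild type. The labels do not say whether a knockout line was 1 clone or a pool, and nothing states that the 2 libraries of a group came from separate cultures. The spread given as an SD may thus be technical.

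SUV39H1, SUV39H2 and SETDB1 all methylate lysine 9 of histone H3, and the trimethylated form, H3K9me3, marks compact and silent chromatin. H3K27me3 is placed by the Polycomb complex PRC2, mostly over silent developmental genes. MECOM has distal and proximal start sites. The transcript from the distal start (MDS1-EVI1) encodes a PR domain, a relative of the SET domain of histone methyltransferases, and the transcripts from the proximal starts encode EVI1, which lacks it. MECOM maintains blood stem cells, and its activation in acute myeloid leukaemia goes with poor outcome. PRDM16 likewise has long and short forms, supports blood and neural stem cells and drives brown fat differentiation. Both proteins bind the corepressors CTBP1 and CTBP2, and both have been described as H3K9 monomethyltransferases.

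MECOM spans 580206 bp on chromosome 3 from 169083507 to 169663712 and is read from the minus strand. PRDM16 spans 369419 bp on chromosome 1 from 3069203 to 3438621. Of all protein-coding genes, 3351 reach 100 kb. Coordinates are from RefSeq on GRCh38.p14, and the domain lists are on hg38.

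The promoters are shown because the position of the domains is given relative to these starts below. The sequences below are the 250 bases before each start, from RefSeq on GRCh38.p14, all on the minus strand, written 5′ to 3′ with CG dinucleotides in capitals. The distal MECOM promoter, at chr3:169663713-169663962, holds 14 CG dinucleotides. The proximal promoters, at chr3:169147472-169147721 and chr3:169146540-169146789, hold 8 and 14. The fourth belongs to PRDM16-DT, the divergent non-coding transcript next to the PRDM16 start, at chr1:3067726-3067975, and holds 21. Over 34961 RefSeq promoters of the same length the median was 11. At least 14 were present in 44.9% of them, at least 8 in 56.4% and at least 21 in 30.3%.
MECOM distal: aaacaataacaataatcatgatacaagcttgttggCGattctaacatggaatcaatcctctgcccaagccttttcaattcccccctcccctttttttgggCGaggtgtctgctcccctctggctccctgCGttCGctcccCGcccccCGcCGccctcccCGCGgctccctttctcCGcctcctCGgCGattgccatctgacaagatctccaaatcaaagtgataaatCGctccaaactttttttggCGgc
MECOM proximal 1: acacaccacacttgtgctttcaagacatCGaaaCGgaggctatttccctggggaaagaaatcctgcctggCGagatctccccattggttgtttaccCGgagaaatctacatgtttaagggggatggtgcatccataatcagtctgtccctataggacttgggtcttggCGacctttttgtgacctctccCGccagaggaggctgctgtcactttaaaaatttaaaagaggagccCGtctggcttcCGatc
MECOM proximal 2: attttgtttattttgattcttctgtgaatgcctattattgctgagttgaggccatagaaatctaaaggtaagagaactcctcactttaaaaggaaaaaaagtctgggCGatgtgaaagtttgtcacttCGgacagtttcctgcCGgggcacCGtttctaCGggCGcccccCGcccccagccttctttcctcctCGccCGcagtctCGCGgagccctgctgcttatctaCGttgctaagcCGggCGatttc
PRDM16-DT: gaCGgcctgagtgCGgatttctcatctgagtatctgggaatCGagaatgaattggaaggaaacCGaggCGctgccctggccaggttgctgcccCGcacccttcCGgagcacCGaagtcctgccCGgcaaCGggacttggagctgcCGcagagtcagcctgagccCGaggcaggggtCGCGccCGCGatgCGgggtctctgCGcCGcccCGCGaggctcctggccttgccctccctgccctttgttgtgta

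The deposited files list, for each library, broad domains in which a mark was enriched. The measure used here is the percentage of a gene's body that lies inside domains. A gene was called lost or gained between genotypes where their libraries did not overlap and the nearest pair of libraries differed by at least 25 percentage points. A domain list shows where enrichment was called, so a mark present in part of the cells and a weaker mark in every cell cannot be told apart. H3K9me3 domains covered 1012.51 to 1043.72 Mb in sgControl, 753.538 to 755.726 Mb in SKO and 787.565 to 794.657 Mb in DKO, and held 16.5 to 23.6 M reads per library. H3K27me3 domains covered 1057.54 to 1062.49 Mb in sgControl, 1200.11 to 1210.3 Mb in SKO and 1198.19 to 1225.44 Mb in DKO. They held 47.9 to 70.7 M reads per library. No library stood apart from its partner by labels or covered length. Reads in domains differed more, most between the DKO H3K27me3 libraries, at 69.3 M in replicate 1 and 47.9 M in replicate 2. The DKO H3K9me3 libraries held 20.6 and 16.5 M, and those of sgControl 23.6 and 18.0 M. The lists hold no expression, so the identity of the cells could not be checked. In both sgControl libraries, 2 of 17 myeloid markers lay partly in H3K9me3 domains and 0 in H3K27me3 domains, against 0 and 0 of 6 B cell, 0 and 1 of 6 T cell, 1 and 2 of 5 erythroid and 1 and 0 of 5 epithelial markers. These counts do not set a cell type apart.

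MECOM lay in domains of both marks in sgControl. Less of it lay in H3K9me3 domains in the knockouts, while H3K27me3 domains still covered nearly all of it. H3K9me3 domains covered 55.3% and 62.8% of MECOM in the 2 sgControl libraries. They covered 8.82% and 4.83% in SKO, and 23.3% and 10.9% in DKO. Every knockout library lay below both sgControl libraries, with SKO lowest. The means were 59.0% ± 5.29 in sgControl, 6.83% ± 2.83 in SKO and 17.1% ± 8.74 in DKO (SD, n = 2). SKO differed from sgControl by -52.2 points (SE 4.24), with -46.5 points between the nearest libraries. DKO differed by -42.0 points (SE 7.22), with -32.0 points between the nearest libraries. Both were called lost, as were 4.5% of all genes in SKO and 4.23% in DKO. Among genes with at least 25% in both sgControl libraries the shares called lost were 24.6% and 23.1%, and among such genes of at least 100 kb they were 30.0% and 29.8%. By size of its difference, MECOM stood 163rd in SKO and 252nd in DKO from the lowest of the 3351 genes of at least 100 kb.

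The DKO libraries held more H3K9me3 over MECOM than the SKO libraries, by 10.2 points (SE 6.50). The nearest pair differed by only 2.07 points, and this comparison was not called. Over all genes, 1.46% were called gained and 1.34% lost in DKO against SKO. The comparisons of SKO and of DKO with sgControl share their control libraries.

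**Figure D1:**
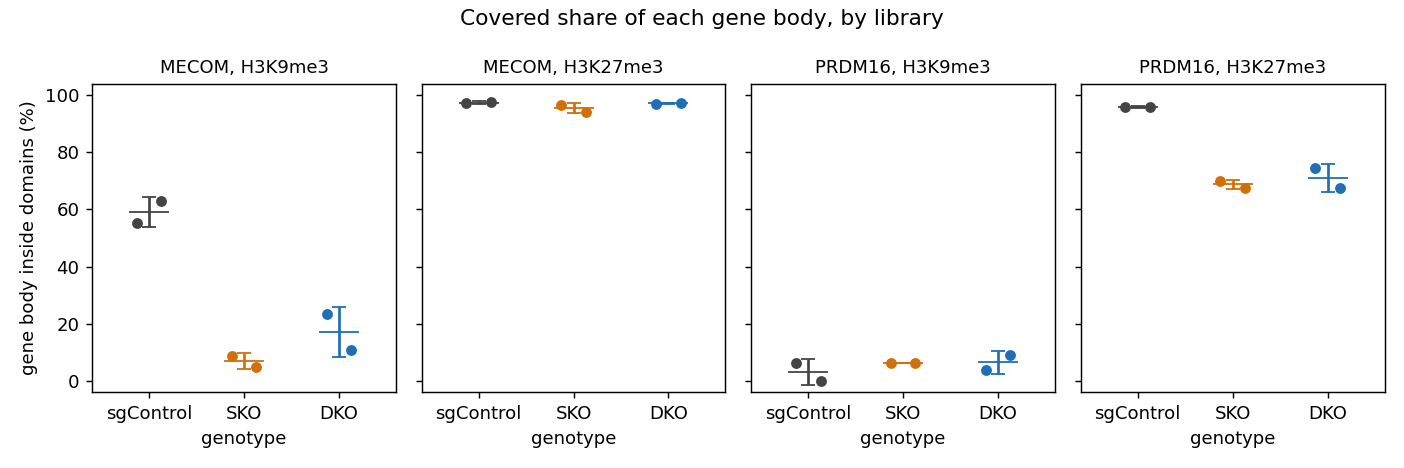
Percentage of the MECOM and PRDM16 gene bodies inside H3K9me3 and H3K27me3 domains, on a linear axis from 0, in each library (points), with the mean of the 2 libraries of a genotype (bars). H3K9me3 over MECOM stands at 55.3% and 62.8% in sgControl and between 4.83% and 23.3% in the 4 knockout libraries, and H3K27me3 over PRDM16 at 95.7% and 96.0% in sgControl and between 67.4% and 74.3% in the knockouts.

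The H3K9me3 domains over MECOM ranked lower in the knockout lists than in the sgControl lists by their median. Each domain carries the authors' score, used here only as a rank within its own list. MECOM held 13 and 11 domains in sgControl, 3 and 2 in SKO, and 7 and 3 in DKO. Of these, 4 and 4 ranked in the upper 50% of their list in sgControl, 0 and 0 in SKO, and 1 and 0 in DKO. The domains' median score percentile was 38.04 and 40.97 in sgControl, 17.5 and 14.0 in SKO, and 27.1 and 6.52 in DKO. Reads per kb inside these domains, relative to all domains of the library, were 0.818 and 0.799 in sgControl, 0.614 and 0.717 in SKO, and 0.656 and 0.675 in DKO.

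The difference was smaller in lists of equal length. When each list was trimmed by score to an equal covered length, sgControl had 24.0% and 39.2% of MECOM in H3K9me3 domains, SKO 8.82% and 4.83%, and DKO 18.3% and 4.41%. The differences were then -24.8 points for SKO and -20.3 points for DKO, and neither was called. With only the upper 50% of each list by score, the values were 28.7% and 39.2% in sgControl, 0% in both SKO libraries, and 5.52% and 0% in DKO. SKO was then called lost, at -34.0 points, and DKO, at -31.2 points, was not. The order of the genotypes' means was the same in all 3 forms of the lists. In the 2 reduced forms, however, DKO stood above SKO only through DKO replicate 1. DKO replicate 2 was below both SKO libraries at equal covered length, and at 0% like SKO in the upper 50%. The equal length was set by the shortest list, that of SKO replicate 1, so the SKO lists were hardly trimmed.

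H3K27me3 covered nearly the whole of MECOM in every library. The values were 97.1% and 97.7% in sgControl, 96.7% and 94.2% in SKO, and 97.0% and 97.2% in DKO, as means 97.4% ± 0.390, 95.4% ± 1.75 and 97.1% ± 0.195 (SD, n = 2). No comparison was called, where 6.53% of all genes were called in either direction in SKO and 6.82% in DKO. Reads per kb over these domains, relative to the library, were 0.929 and 0.943 in sgControl and between 0.888 and 0.941 in the knockouts.

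The H3K9me3 common to both sgControl libraries lay inside H3K27me3 domains. Since H3K27me3 covered 560.206 kb, or 96.6% of the gene, in both of these libraries, overlap in this direction was nearly fixed by that cover. H3K9me3 was present in both sgControl libraries over 231.2 kb of MECOM, 39.8% of the gene, and 100% of that length also lay in H3K27me3 domains of both sgControl libraries. Both marks lay together in all 4 libraries over 16.8 kb in SKO and 42.4 kb in DKO. Of the H3K9me3 length of both sgControl libraries, 16.8 kb was kept in both SKO libraries and 27.2 kb in both DKO libraries. Length marked by H3K9me3 in both sgControl libraries and in neither library of the knockout summed to 178.4 kb in SKO and 134.4 kb in DKO, and 123.2 kb of it was common to both knockouts. The longest such segment in SKO ran over 30.4 kb from 169608001 to 169638400, toward the distal start. The longest common to both knockouts ran over 24.8 kb from 169380801 to 169405600, inside the gene.

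MECOM was cut into 10 bins of equal length, counted from that start. In bin 1, the most covered on average in sgControl, that genotype had 88.2% and 100% in H3K9me3 domains, SKO 19.3% and 37.2%, and DKO 50.5% and 44.1%. In bins 8 to 10, of which bin 9 holds the proximal starts, all 4 knockout libraries were at 0%, where the sgControl libraries ranged from 6.37% to 53.8%. In bin 7, sgControl had 74.5% and 76.6%, both SKO libraries 0%, and DKO 46.9% and 25.5%. In bin 3 the genotypes overlapped, at 35.3% and 84.8% in sgControl, 50.4% and 0% in SKO, and 51.8% and 0% in DKO. A kept segment from 169648001 to 169657600 lay in H3K9me3 domains in all 6 libraries.

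**Figure D2:**
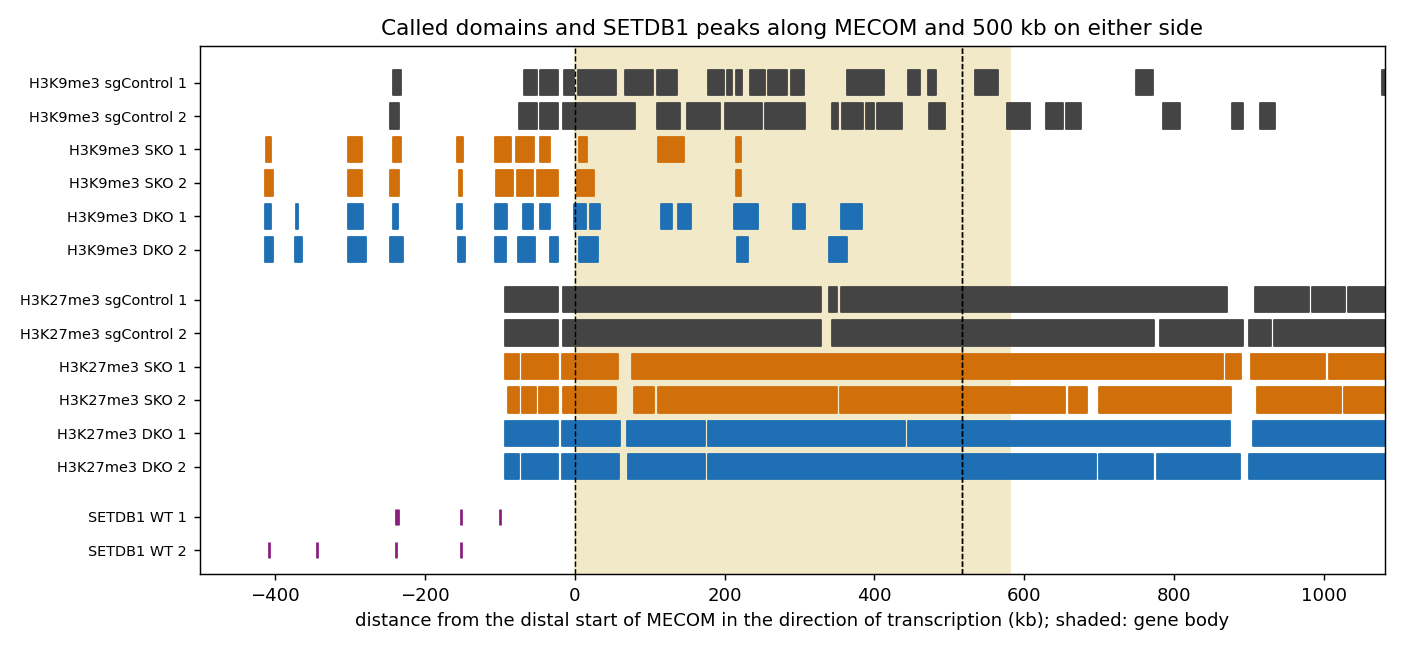
Called H3K9me3 and H3K27me3 domains of each library over MECOM and 500 kb on either side, with WT SETDB1 peaks, plotted as distance in kb from the distal start in the direction of transcription. H3K27me3 fills the gene in all 6 libraries, and H3K9me3 over the gene thins from 13 and 11 domains in sgControl to 3 and 2 in SKO.

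Over the MECOM promoters printed above, neither mark followed genotype. All 3 lay inside H3K27me3 domains in all 6 libraries. The distal promoter lay in an H3K9me3 domain in sgControl replicate 2 and DKO replicate 1 only, and in sgControl replicate 1 the nearest domain ended 0.839 kb away. In the remaining knockout libraries the nearest domain was 3.71 to 6.11 kb away. The proximal promoters, which serve EVI1, lay in no H3K9me3 domain in any library. From them the nearest domain was 16.9 to 22.8 kb away in sgControl, 294.68 to 295.612 kb in SKO and 133.08 to 154.012 kb in DKO. The nearest H3K9me3 domain was thus farther from these starts in each knockout library than in either sgControl library.

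PRDM16, like MECOM, was filled with H3K27me3 in sgControl, but it had almost no H3K9me3, and its H3K27me3 was shorter in the knockouts. H3K27me3 domains covered 96.0% and 95.7% of PRDM16 in sgControl, 69.8% and 67.6% in SKO, and 74.3% and 67.4% in DKO. Both sgControl libraries lay above all 4 knockout libraries, and the ranges of SKO and DKO overlapped. The means were 95.8% ± 0.230, 68.7% ± 1.53 and 70.9% ± 4.90 (SD, n = 2). SKO differed from sgControl by -27.1 points (SE 1.09) and, with -25.9 points between the nearest libraries, was just past the 25-point limit and called lost. DKO differed by -24.96 points (SE 3.47) and, with -21.3 points between the nearest libraries, was just short of it. Without DKO replicate 1 the difference was -28.4 points and was called. Of all genes, 3.15% were called lost in SKO and 3.0% in DKO. Among genes with at least 25% in both sgControl libraries the shares were 19.5% and 18.6%, and among those of at least 100 kb 11.0% and 10.5%. PRDM16 stood 118th in SKO and 133rd in DKO from the lowest of the 3351 long genes.

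Over PRDM16 the libraries of SKO and DKO overlapped, and their means differed by 2.17 points (SE 3.63). In the upper 50% of domains by score the difference was 14.0 points, with 64.2% and 49.6% in SKO and 74.3% and 67.4% in DKO, which did not overlap, and lists of equal covered length gave the same values. Neither was called. Of all genes 0.726% were called gained and 0.365% lost in H3K27me3 between them. Reads per kb inside the remaining domains, relative to the library, did separate from the controls: 1.20 and 1.11 in sgControl against 0.827 and 0.804 in SKO and 0.912 and 0.957 in DKO. The widest domain touching PRDM16 was 195.2 and 453.6 kb in sgControl, 112.8 and 96.8 kb in SKO, and 124.8 and 121.6 kb in DKO. Domain numbers were 2 and 3, 5 and 6, and 3 and 3, so in SKO the covered length was in more and shorter pieces.

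H3K9me3 over PRDM16 was low in every library. It covered 6.28% and 0% in sgControl, 6.34% and 6.12% in SKO, and 3.68% and 9.16% in DKO. The genotypes overlapped, and no comparison was called, beside 8.61% of all genes called in either direction in SKO and 8.07% in DKO. No base of PRDM16 lay in H3K9me3 domains in both sgControl libraries, against 20.221 kb in both SKO libraries and 13.6 kb in both DKO libraries. However, sgControl replicate 1 alone had 23.2 kb, and replicate 2 had no domain in the gene. Length in both libraries of a knockout and in neither sgControl library was only 3.421 kb in SKO and 1.6 kb in DKO.

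The H3K27me3 lost from PRDM16 came from its middle. Length marked in both sgControl libraries and in neither library of the knockout summed to 80.0 kb in SKO and 75.2 kb in DKO, 51.2 kb of it common to both, and no length was gained. The longest lost segments were from 3160801 to 3198400 (37.6 kb) and from 3220801 to 3243200 (22.4 kb) in SKO, and from 3182401 to 3243200 (60.8 kb) in DKO. Counting 10 equal bins from the start, bin 4 was at 100% in both sgControl libraries, 45.9% and 50.3% in SKO, and 6.42% and 0% in DKO. Bin 5 was at 71.0% and 73.2% in sgControl, 10.4% and 8.20% in SKO, and 0% in both DKO libraries. DKO had less than SKO in both bins, over the 20 kb from 3200001 to 3220000 that SKO kept. Bin 3 was at 100% in both sgControl libraries and DKO replicate 1, 48.0% and 45.8% in SKO, and 52.3% in DKO replicate 2. In bins 6 and 7 the knockout libraries ranged from 55.1% to 77.0%, and sgControl from 89.2% to 100%. Bin 9 was at 100% in all 6 libraries, and bin 1 between 88.1% and 100%.

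**Figure D3:**
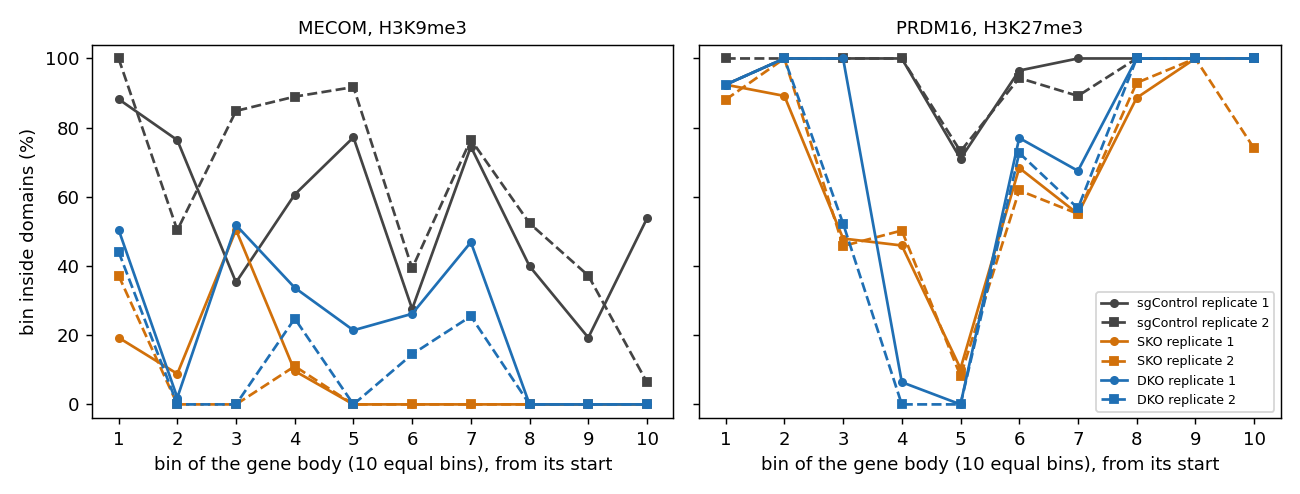
Percentage of each of 10 equal bins of MECOM inside H3K9me3 domains and of PRDM16 inside H3K27me3 domains, counted from the gene's start, for each library. In MECOM the knockout libraries are at 0% in bins 8 to 10. In PRDM16 they lie below both sgControl libraries in bins 4 to 7, and in bin 3 except for DKO replicate 1, and are at 100% in bin 9.

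**Figure D4:**
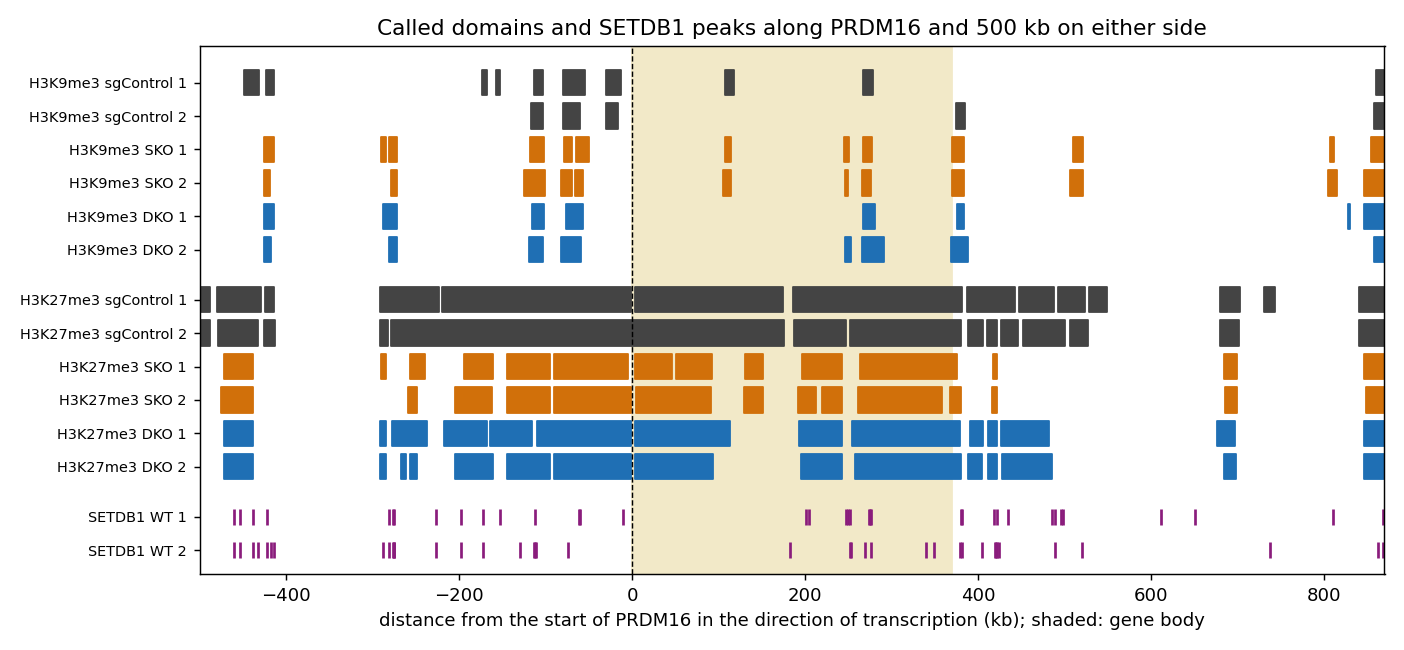
Called H3K9me3 and H3K27me3 domains of each library over PRDM16 and 500 kb on either side, with WT SETDB1 peaks, plotted as distance in kb from the gene's start. In the knockout libraries the H3K27me3 domains are broken in the middle of the gene, where the fifth of its 10 equal parts is at 0% in both DKO libraries and at 10.4% and 8.20% in SKO, and past its end, where SKO has least.

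At the start of PRDM16 the H3K27me3 domains were open in most libraries. The start lay in a gap of 4.0 kb between domains in sgControl replicate 1 and inside a domain in sgControl replicate 2. The gap was 7.2 and 6.4 kb in SKO and 4.8 kb in both DKO libraries. The PRDM16-DT promoter printed above lay inside an H3K27me3 domain in both sgControl libraries and in none of the 4 knockout libraries, where the nearest domain was 0.526 to 2.93 kb away. It lay in no H3K9me3 domain in any library. Since domain edges sit on an 800 bp grid, the smaller of these shifts amount to 1 window.

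The chromatin around the genes differed between their sides. On the side past the 3′ end of MECOM, where no other protein-coding gene lies within 500 kb, H3K9me3 covered 5.22% and 25.02% in sgControl and 0% in all 4 knockout libraries. On the upstream side it covered 13.3% and 15.1% in sgControl, 20.8% and 23.4% in SKO, and 17.0% and 23.5% in DKO. H3K27me3 held 87.8% to 95.8% of the 3′ side in all 6 libraries. It ended upstream at about the same place in each, between 89.1 and 93.1 kb from the distal start. H3K9me3 domains on the upstream side numbered 4 and 3 in sgControl, 7 and 7 in SKO, and 8 and 8 in DKO. More than 100 kb from the start they numbered 1 and 1, 4 and 4, and 5 and 5, and the H3K27me3 edge lies short of that distance in every library.

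Among the 9 protein-coding genes within 500 kb of MECOM, 1 was called gained in H3K9me3 and 0 were called lost, in SKO and in DKO alike. Over all genes the shares gained were 4.11% in SKO and 3.84% in DKO. The gained gene was ACTRT3, an actin-related gene, at 0% in both sgControl libraries, 100% and 71.2% in SKO and 100% in both DKO libraries. LRRIQ4, a leucine-rich repeat gene, stood at 0% in both sgControl libraries, 31.8% and 19.3% in SKO and 22.5% and 25.4% in DKO. GPR160, an orphan receptor gene, stood at 0% in sgControl, 13.5% and 20.3% in SKO and 15.2% and 21.9% in DKO. Neither was called, and LRRC34 had 4.54% and 12.6% in 1 library each of SKO and DKO. The other 5, MYNN, LRRC31, SAMD7, SEC62 and PHC3, were in no domain of either mark in any of the 12 libraries. None of the 9 had H3K27me3. TERC, the telomerase RNA gene beside ACTRT3, was named after its values were seen: it lay 0% in H3K9me3 domains in sgControl and 100% in all 4 knockout libraries. TERC is on chromosome 3 from 169764610 to 169765060, 100.898 kb upstream of MECOM.

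Around PRDM16, H3K27me3 was shorter on both sides in the knockouts. Below the gene's start it covered 71.9% and 71.7% in sgControl, 45.3% and 45.4% in SKO, and 57.4% and 47.4% in DKO. Past its end it covered 45.3% and 36%, 10.1% and 10.2%, and 27.4% and 26.7%. Both sides together averaged 56.2% ± 3.37 in sgControl, 27.8% ± 0.113 in SKO and 39.7% ± 3.79 in DKO (SD, n = 2). The 3 genotypes did not overlap, with SKO lowest. H3K9me3 on both sides ranged from 6.98% to 12.2% over all 6 libraries.

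Of the 17 protein-coding genes within 500 kb of PRDM16, 2 were called lost in H3K27me3 in SKO and 0 in DKO, beside 3.15% and 3.0% of all genes. The 2 were ARHGEF16, which encodes a guanine nucleotide exchange factor, and MEGF6, which encodes a protein with EGF-like repeats, both past the end of PRDM16. ARHGEF16 was covered over 94.9% and 73.8% in sgControl, 0% in both SKO libraries, and 61.7% and 64.7% in DKO. MEGF6 was covered over 86.0% and 67.3%, 2.38% in both SKO libraries, and 42.7% and 44.5% in DKO. The same 2 genes were called gained in DKO against SKO, beside 0.726% of all genes, so the SKO cells had the lowest H3K27me3 over them. ACTRT2, an actin-related gene, stayed at 100% in all 6 libraries. CCDC27 had 97.7% and 93.5% in sgControl, 79.2% and 70.8% in SKO, and 72.7% and 75.02% in DKO. MMEL1, a metallopeptidase gene, had 100% in sgControl and 79.3% to 88.7% in the knockouts. In no domain of either mark were 6 of the 17, among them TP73, which encodes a transcription factor, and WRAP73. For H3K9me3, 0 of the 17 were called in any comparison, beside 8.61% of all genes in SKO and 8.07% in DKO in either direction.

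SETDB1 peaks of wild-type cells were absent from the body of MECOM and more numerous, though mostly unshared, in that of PRDM16. The 2 libraries held 23427 and 24366 peaks, called per library, and 2 peaks were counted as shared where they overlapped by at least 1 bp. Inside MECOM there were 0 peaks in either library, as in 45.3% and 44.8% of genes of at least 100 kb. Inside PRDM16 there were 8 and 7 peaks, or 21.7 and 18.9 per Mb, where the median of the long genes was 3.30 and 3.53. At least that density was reached by 9.28% and 11.6% of them. Of the peaks inside PRDM16, 3 in each library were shared, and 1 and 0 had a −log10 p of at least 10. Including 500 kb on either side, the MECOM region held 4 and 4 peaks, 2 of them shared, and the PRDM16 region 36 and 39, of which 20 were shared. At the stricter limit of a −log10 p of 10, the shared peaks were 1 and 3. Of the PRDM16 peaks, 5 of the 36 and 5 of the 39 reached it.

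All SETDB1 peaks near MECOM lay on its upstream side, where H3K9me3 domains were more numerous in the knockouts. Merged over both libraries they made 6 sites, and a site was taken as inside a domain where it overlapped one by at least 1 bp. In each sgControl library 2 of the 6 lay in H3K9me3 domains, against 5 in each knockout library. The 3 sites in no sgControl domain and in all 4 knockout libraries' domains were at 169763148 to 169763927, 169815430 to 169816209 and 170071050 to 170071652. Of these, only the site from 169815430 was called in both SETDB1 libraries, and the others in 1 each. Counting only the 2 sites called in both SETDB1 libraries, 1 lay in H3K9me3 domains in each sgControl library and 2 in each knockout library. The strongest site, from 169899713 to 169902880, lay in H3K9me3 domains in all 6 libraries, with an authors' −log10 p of 21.0 and 12.4. None of the 6 lay in an H3K27me3 domain. Genome-wide, the share of replicate 1 peaks with their midpoint in H3K9me3 domains was also higher in the knockouts: 65.0% and 62.7% in sgControl, 79.5% and 79.2% in SKO, and 77.9% and 76.7% in DKO.

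Near PRDM16 the SETDB1 peaks mostly fell in H3K27me3 domains. By midpoint, 86.1% and 83.3% of the 36 replicate 1 peaks of the region lay in sgControl H3K27me3 domains, where over all peaks it was 18.5% and 18.4%. In SKO the region's share was 44.4% and 50.0%, and in DKO 55.6% and 52.8%. H3K27me3 domains themselves covered, on average, 95.8% of the gene and 56.2% of its 500 kb flanks in sgControl. These means were 68.7% and 27.8% in SKO, and 70.9% and 39.7% in DKO. Whether the share of peaks exceeded this local cover was not tested. In H3K9me3 domains the same 36 peaks had shares of 30.6% and 16.7% in sgControl, 44.4% and 38.9% in SKO, and 36.1% and 44.4% in DKO. SETDB1 was mapped in wild-type cells only, so its binding in the knockouts was not measured. The strongest peak of the region lay 10.7 kb past the end of PRDM16, from 3449291 to 3451567 in replicate 2, with an authors' −log10 p of 50.6 and 27.3. It ranked at percentile 97.8 and 96.2 of its library and lay in an H3K9me3 domain in sgControl replicate 2 and in all 4 knockout libraries. Inside the gene, the peaks from 3316449 to 3322274 lay where H3K27me3 was called in at least 1 sgControl library and in none of the 4 knockout libraries.

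In sgControl, the other PRDM family members examined had a mean of 14.98% in H3K9me3 and 13.8% in H3K27me3, beside 16.6% and 15.1% over all genes. Of these 14, 2 were called lost in H3K9me3 in SKO and 2 in DKO, beside 4.5% and 4.23% of all genes, and 0 were gained. In H3K27me3, 1 was called gained in each knockout, beside 3.37% of all genes in SKO and 3.82% in DKO, and 0 were lost. The family's median difference was 0 points for both marks and both knockouts, as it was over all genes. PRDM6, a repressor described in smooth muscle, had H3K9me3 over 73.7% ± 4.85 in sgControl, 0% in both SKO libraries and 30.0% ± 17.8 in DKO. Its H3K27me3 was 0% in sgControl, 92.8% ± 6.46 in SKO and 87.6% ± 12.1 in DKO (SD, n = 2). PRDM6 lacked H3K27me3 in sgControl, whereas MECOM had it there.

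PRDM14, a pluripotency regulator, also carried both marks in sgControl and was called lost in H3K9me3 in both knockouts. Its H3K9me3 was 100% in both sgControl libraries, 0% in both SKO libraries, and 63.0% and 0% in DKO, while H3K27me3 was 91.6% in both sgControl libraries and 65.3% to 100% in the knockouts. PRDM9, a meiotic recombination factor, had H3K27me3 without H3K9me3 in sgControl, as PRDM16 nearly did. Its H3K27me3 was 100% in both sgControl libraries, 100% and 80.5% in SKO, and 100% and 35.0% in DKO, with no call. PRDM9 and PRDM7 are near-identical, so their values are uncertain. PRDM1, PRDM4, PRDM10 and PRDM12 had neither mark in any library.

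**Figure D5:**
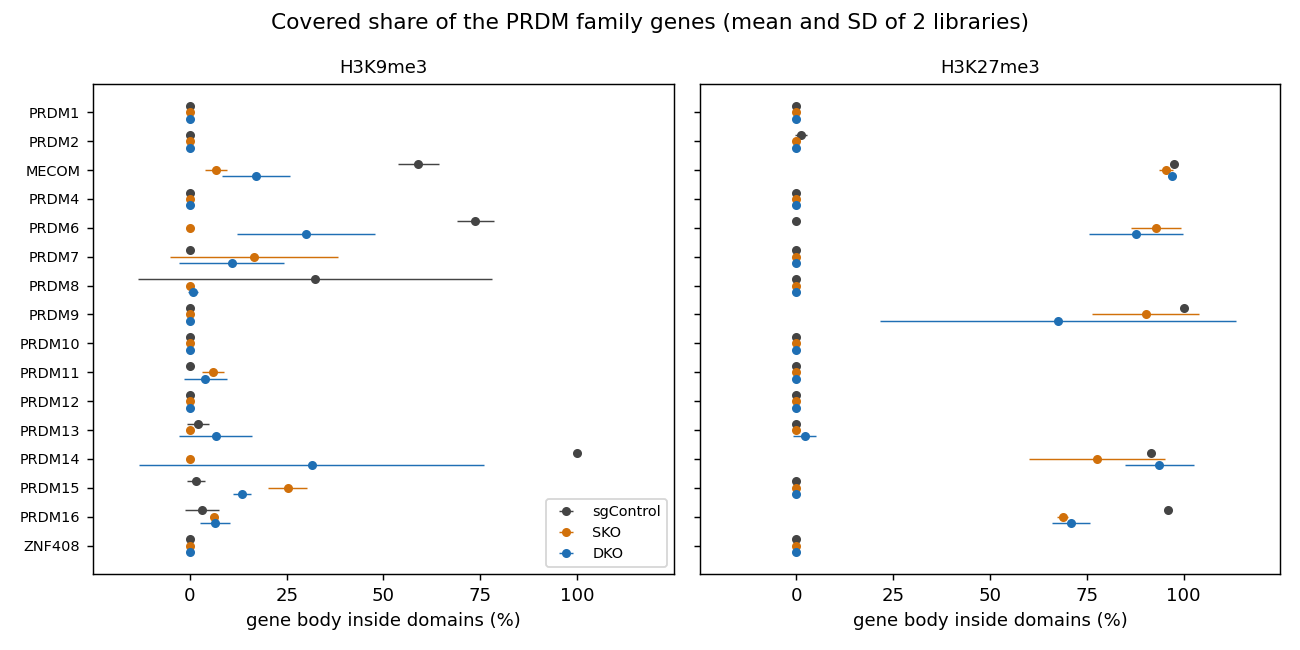
Mean percentage of the gene body inside H3K9me3 and H3K27me3 domains for the PRDM family genes by genotype (points: mean, lines: SD, n = 2 libraries each). MECOM, PRDM6 and PRDM14 go from 59.0%, 73.7% and 100% in H3K9me3 in sgControl to 6.83%, 0% and 0% in SKO, and PRDM6 goes from 0% to 92.8% in H3K27me3.

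The partners and cofactors of the 2 proteins were little covered. Of 17 such genes, 1 was called lost and 1 gained in H3K9me3 in SKO, 1 lost and 2 gained in DKO, and 0 in H3K27me3. Over all genes, 4.5% were lost and 4.11% gained in H3K9me3 in SKO, and 4.23% and 3.84% in DKO, and in H3K27me3 6.53% and 6.82% were called in either direction. PPARGC1A, the coactivator of brown fat that PRDM16 binds, was covered by H3K9me3 over 68.5% and 66.0% in sgControl, 7.28% and 8.93% in SKO, and 3.99% and 5.29% in DKO. PPARG, the fat cell regulator, moved the other way, from 13.6% and 11.4% to 45.7% and 41.9% in SKO and 44.6% and 41.4% in DKO. HDAC2, a histone deacetylase, was gained in DKO, with 1.503% and 3.602% in sgControl, 26.7% and 39.3% in SKO, and 35.1% and 64.5% in DKO.

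Of 10 genes that partner with or accompany MECOM or PRDM16 in rearranged leukaemia, 1 was called lost and 2 gained in H3K9me3 in SKO, and 1 was gained in DKO. The shares over all genes were 4.5% lost and 4.11% gained in SKO and 3.84% gained in DKO. CDK6, a cell cycle kinase, was gained in both, at 11.1% and 8.63% in sgControl, 57.0% and 58.4% in SKO, and 47.0% and 50.1% in DKO. RUNX1, a blood transcription factor fused to MECOM in some leukaemias, was gained in SKO, at 0% in sgControl, 32.1% and 27.2% in SKO, and 27.5% and 19.9% in DKO. RUNX1T1 was lost in SKO, at 91.4% and 89.8% in sgControl, 32.9% and 15.6% in SKO, and 89.6% and 49.6% in DKO. For RUNX1 and RUNX1T1 the difference between SKO and DKO was not called. In H3K27me3, 0 of the 10 were called, beside 6.53% of all genes in SKO and 6.82% in DKO.

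Of 22 genes of the blood stem cell programme, 1 was called lost and 1 gained in H3K9me3 in SKO, beside 4.5% and 4.11% of all genes, and 0 in DKO, beside 8.07% in either direction. NRIP1, a nuclear receptor corepressor, was lost, from 96.2% and 100% to 50.7% and 66.1%. KIT, the stem cell factor receptor, was gained, from 0% and 24.1% to 61.8% and 56.0%. In H3K27me3, 1 was gained in SKO, beside 3.37% of all genes, and 1 was lost and 2 gained in DKO, beside 3.0% and 3.82%. ZBTB16, a zinc finger repressor, was gained in both, from 0% to 32.1% and 27.6% in SKO and 36.5% and 26.8% in DKO. In DKO, TEK, a receptor kinase, was gained, at 68.4% and 32.7% from 0%, and TAL1, a blood master regulator, was lost, at 68.0% and 54.8% from 100%. By limma, at a Benjamini-Hochberg adjusted p under 0.05, 9 of the 63 listed genes in SKO and 6 in DKO passed for H3K9me3, beside 7.9% and 7.35% of all genes, and 2 and 2 for H3K27me3, beside 6.36% and 6.73%. With the replicate number as a block, limma called 3 and 3 for H3K9me3 (3.71% and 3.67% of all genes) and 0 and 0 for H3K27me3 (4.72% and 5.04%), where 4 and 4 passed at an unadjusted p under 0.05. Between DKO and SKO, limma called 0 of the 63 for either mark, beside 1.26% of all genes for H3K9me3 and 0.766% for H3K27me3, and 0 with the block, beside 0.365% and 0.285%. At an unadjusted p under 0.05, without the block, 7 passed for H3K9me3 and 1 for H3K27me3, and with it 5 and 1. The median difference of a gene, SKO or DKO against sgControl, was at most 1.94 points in these 3 lists, beside 0 over all genes.

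Other long genes had layouts close to those of MECOM and PRDM16. Likeness was taken as the mean absolute difference in percentage of gene body over all 12 libraries of both marks, among the 3350 other genes of at least 100 kb. The 5 nearest to MECOM were FBXL7 (3.62 points), SGCZ (3.995), ROBO2 (4.15), SPATA16 (4.21) and SNTG1 (4.27), and 108 genes lay within 10 points. The 5 nearest to PRDM16 were MDGA2 (5.14 points), ARHGEF12 (5.24), KCTD8 (5.36), PTPRD (5.56) and CCSER1 (6.21), and 57 lay within 10 points. By H3K9me3 alone the nearest to MECOM was ARAP2, at 4.87 points over 6 libraries, and by H3K27me3 alone RANBP17, at 0.520. For PRDM16 they were HEATR5A, at 1.43 points by H3K9me3, and PTPRO, at 2.40 points by H3K27me3. Within 5 points over both marks stood 6 genes for MECOM and 0 for PRDM16.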

How the data were processed

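ChIP-seq was made in U937 cells with Drosophila S2 chromatin added as a spike-in, per the labels' protocols. Of 18 samples, 14 were analysed, and the 4 input samples were not analysed here. The submitters' processing notes name the builds hg38 and dm6 and the tools SICER, deepTools 3.5.6, FastQC 0.12.1 and Trim Galore 0.6.10. Not given in the sources used here are the aligner, the read filters, the handling of multiply matching reads and the SETDB1 peak caller. The H3K9me3 and H3K27me3 lists, made per library with epic2 per the deposited files' names, hold for each domain the authors' read count, with no correction for depth, input or spike-in, and the authors' score. The SETDB1 lists give, per peak, a score, a fold enrichment ratio and −log10 p and q values, as deposited by the authors.

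Domain edges were written counting from 1, and the percentage of each gene body inside domains was computed with Python 3.11.15, numpy 2.4.6 and pandas 2.3.3, from RefSeq gene ends on GRCh38.p14. Differences are between genotype means, with SEs from 2 libraries per group. With 2 libraries a group the smallest p of an exact permutation test is 0.333, so none was used. limma 3.58.1 in R 4.3.3, with Benjamini-Hochberg adjusted p under 0.05 over all 19974 genes, gave an alternative count for the lists. The scripts were tested on simulated data. The members, the 4 gene lists and the markers were chosen with earlier results of these data known. The counts leave out 1 listed gene, which is not reported here. Named were the neighbours within 500 kb, of each list up to 5 called members by size of difference, and the 5 genes most like each member, of which the nearest is given for a single mark. Leaving out libraries for the list counts was added after seeing the data. Same-numbered libraries were not paired: the correlation of their deviations over genes was -0.0145 to 0.0503.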

Additional observations from a re-analysis of the deposited data

How the results depend on the processing

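Each group has 2 libraries, domain lists depend on depth and on the caller, and no input or spike-in value was used, so percentages of a gene in domains are not amounts of a mark. Trimming all lists to an equal covered length gave -24.8 points (SKO) and -20.3 points (DKO) for MECOM H3K9me3, both no longer called, and the upper 50% of domains by score gave -31.2 points for DKO, not called. For PRDM16 H3K27me3 either form of list gave -39.0 points in SKO, called, and -24.96 points in DKO, not called. The cause was not tested. Leaving out each library in turn gave -55.9 to -48.5 points (SKO) and -48.1 to -35.8 points (DKO) for MECOM H3K9me3. It gave -28.2 to -26.0 points for PRDM16 H3K27me3 in SKO. In DKO it gave -28.4 to -21.5 points, called only without DKO replicate 1. All calls already made stayed, which was fixed in advance: leaving out a library cannot narrow the gap between the nearest libraries. With a gene body extended by 2 kb on either side, no call of the 2 genes changed. With 2 libraries in every group a replicate block cannot move a difference of means (-52.2 and -42.0 points for MECOM H3K9me3, -27.1 and -24.96 for PRDM16 H3K27me3), so it says nothing about their stability.

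For MECOM H3K9me3, flanks of 250 kb in place of 500 kb moved DKO against SKO from -0.906 to -3.81 points. DKO against sgControl went from -4.52 to -12.6. For PRDM16 H3K27me3, DKO against SKO went from 11.96 to 20.1 points and SKO against sgControl from -28.5 to -39.7. For PRDM16 H3K9me3, DKO against SKO went from -2.43 to -4.06 and DKO against sgControl from 0.829 to -1.94. With the upper 50% of domains by score, the MECOM flanks in H3K9me3 changed sign in DKO against sgControl, to 3.95 points. The PRDM16 flanks in H3K9me3 gave 1.29 points in DKO against SKO, also of changed sign. They gave 8.03 points in DKO and 6.74 in SKO against sgControl, from 0.829 and 3.26. Shared SETDB1 peaks at a −log10 p of at least 10 were 1 at MECOM and 3 at PRDM16, and single libraries held 4 and 4, and 36 and 39.

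Of the 63 listed genes without the 2 members, 9 (SKO) and 6 (DKO) were called in H3K9me3 and 2 and 4 in H3K27me3. At a difference of 50 points the H3K9me3 counts were 4 and 1 and the H3K27me3 counts 1 and 1. At equal covered length the H3K27me3 counts were 1 and 2, the upper 50% by score gave 1 in SKO, and limma gave 2 in DKO. limma with a replicate block called 3 (SKO) and 3 (DKO) in H3K9me3 and 0 and 0 in H3K27me3, where 4 and 4 passed at an unadjusted p under 0.05. Between DKO and SKO 0 were called, also by limma, and 2 in H3K9me3 in the upper 50% by score. Leaving out each library gave 10 to 13 (SKO), 7 to 10 (DKO) and 1 to 3 (DKO against SKO) in H3K9me3, and 2 to 4, 4 to 5 and 0 to 1 in H3K27me3. By the call rule, leaving out a library can only keep or raise such a count. The cause of these changes was not tested. In all, 189 of the recomputed values kept their call, stayed within the replicate spread or, for counts, stayed within a set ratio of the reported count. A change from 9 to 13 listed genes was thus among the 189. Of the others, 37 moved, 3 lost a call and 1 gained a call. Part of the 189 was fixed in advance. A replicate block cannot move a difference of means, and leaving out a library cannot remove a call.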

Other observations

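MECOM-AS1, a non-coding RNA antisense to MECOM on chromosome 3 from 169447867 to 169477052, lay in H3K9me3 domains over 67.1% and 78.1% in sgControl, 0.459% and 3.20% in SKO, and 11.4% and 0% in DKO, and in H3K27me3 domains over 100% in all 6 libraries. MIR4251, a microRNA gene inside PRDM16, lay in H3K27me3 domains over 100% in all 6 libraries and in no H3K9me3 domain. Both were named after their values were seen.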
